A study of Mus musculus with 4 samples.

Results

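The ATP-binding cassette (ABC) family was followed in the caecum of mice through every gene whose symbol begins with Abc, a subfamily letter from a to g and a digit. The rule found 48 genes among the 22180 genes with a single-symbol probe set, and each of the 48 had 1 probe set. Subfamily A had 16 genes, B 9, C 10, D 3, E 1, F 3 and G 6. Some relatives carry other symbols and were not members: Cftr, the chloride channel of subfamily C, and Tap1 and Tap2, the peptide pump of antigen presentation in subfamily B. A RefSeq gene table (GRCm38.p6) held all 48 members by gene identifier with the same symbol.

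ABC proteins bind and hydrolyse ATP, and most of them use it to move lipids, bile salts, drugs or conjugates across a membrane. Subfamily A and much of G handle lipids and sterols, B and C include the multidrug exporters, and D serves peroxisomes and lysosomes. The E and F proteins lack a membrane-spanning part and act on ribosomes and translation. In the gut epithelium, Abcb1a and Abcg2 at the apical membrane return drugs and dietary toxins to the lumen, while Abcc3 exports conjugates towards the blood.

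Each of the 4 groups was 1 Affymetrix array of caecal RNA pooled from 6 mice, which were picked for RNA quality. All mice were C57Bl/6, 21 weeks old and ate an n-3 PUFA depleted chow, poor in omega-3 fatty acids. They were wild type (WT) or apoE knock-out (KO), lacking the apolipoprotein by which lipoprotein remnants are cleared, with no further allele named. Each genotype was kept without prebiotics or given them (Orafti P95, fermentable carbohydrate) at 250 mg per mouse per day for the last 15 days. For the WT arrays the title, source name and treatment fields give one diet and the description gives the opposite; WT arrays are named here by title.

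Values are log2 RMA values, on which a difference of 1 is a 2-fold change. Each array had a median over all its probe sets of 2.92 or 2.93, and a gene at most 0.5 above it on all 4 arrays is called near the array median, where differences are compressed and sizes approximate. Apoe had 3.90 and 4.09 on the WT arrays and 2.83 and 3.13 on the KO arrays. All 10 epithelial markers checked were above that limit, with Epcam between 10.10 and 10.33. The KO prebiotic array stood apart in markers of other cells. The Paneth cell defensin Defa21 had 3.37 and 2.98 in WT and 3.08 and 8.18 in KO. Of 7 Paneth markers, 6 reached the median of single-symbol probe sets on at least 1 array, and Pla2g2a did not. The mean of these 6 was 3.31 and 3.01 in WT and 3.05 and 5.78 in KO. Among them, Defa24 and Itln1 reached that median on the KO prebiotic array only, which raises the mean there. Mmp7, Pla2g2a and Itln1 were near the array median throughout. The mean of the B cell markers was lowest on the KO prebiotic array, with 3.46 and 3.52 in WT and 3.44 and 2.77 in KO. Small intestinal enterocyte markers had a median prebiotic difference of 0.96 in the KO pair and 0.20 in the WT pair by title. Their mean was 5.21 and 5.84 in WT and 5.09 and 6.08 in KO, so it was higher on both prebiotic arrays. The part of all these markers in the members' KO differences was not tested. Each member's KO-pair value is given with its WT-pair value, which does not use the KO prebiotic array. Pooling hides the spread between mice, and in whole caecal tissue fewer cells of a type and less RNA per cell cannot be told apart.

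Of the 48 members, 25 were above the near-median limit on at least 1 array and 23 were near the median on all 4. Over all genes, 58.1% were near the median. Probe sets differ in their probes, so levels are set against the array median and not against each other.

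**Figure D1:**
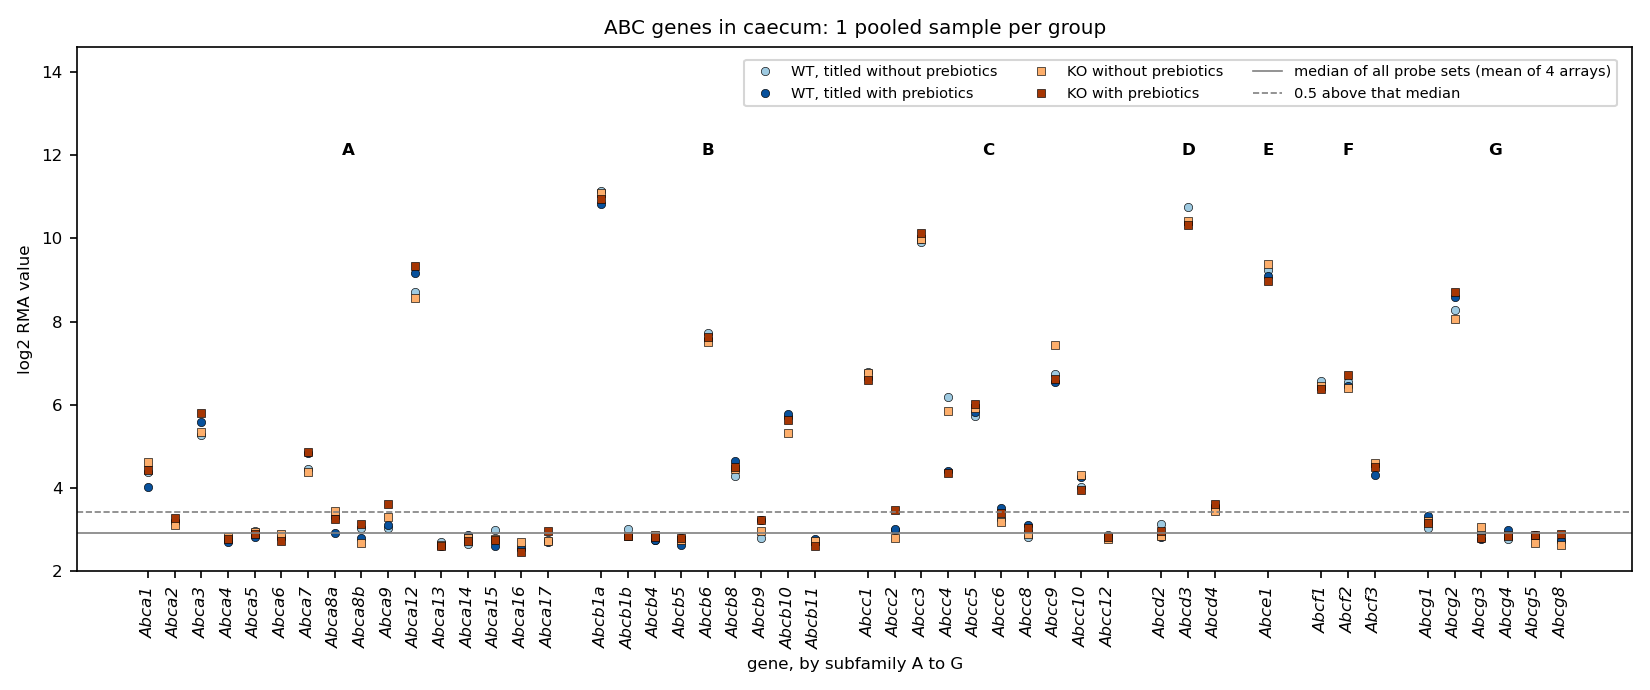
Log2 RMA value (vertical axis) of the 48 ABC genes (horizontal axis, by subfamily) on the 4 arrays, 1 point per array. The solid line is the median of all probe sets and the dashed line lies 0.5 above it. The 23 genes near the median sit between 2.46 and 3.33, and the points of Abcc4 and Abcc9 spread most widely.

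In subfamily A, 10 of 16 genes were near the array median, with values from 2.46 to 3.29. They were Abca2, Abca4 (the retinal lipid flippase), Abca5, Abca6, Abca8b, Abca13, Abca17 and the neighbouring genes Abca14, Abca15 and Abca16. Abca12, a glucosylceramide transporter best known from the skin barrier, had 8.70 and 9.18 on the WT arrays without and with prebiotics and 8.57 and 9.34 on the KO arrays. Both prebiotic arrays lay above both others. Abca3, which loads lung surfactant lipids into lamellar bodies, had 5.27 and 5.60 in WT and 5.34 and 5.80 in KO. Abca7, a phospholipid transporter linked to phagocytosis, had 4.47 and 4.83 in WT and 4.38 and 4.87 in KO. For Abca3 and Abca7, too, the prebiotic arrays did not overlap with the others. Abca1, the cholesterol exporter that loads apolipoprotein A-I, lay between 4.02 and 4.61, and Abca8a and Abca9 left the near-median range on 1 array each.

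In subfamily B, 5 of 9 genes were near the median, among them Abcb5 and the lysosomal peptide transporter Abcb9. Abcb1a, one of the mouse genes for the drug pump P-glycoprotein, had 11.14 and 10.84 in WT and 11.08 and 10.94 in KO, with lower values on both prebiotic arrays. Its neighbours on chromosome 5, the other P-glycoprotein gene Abcb1b and the bile phospholipid exporter Abcb4, were near the median at 2.74 to 3.01. So was Abcb11, the bile salt export pump of the liver, at 2.61 to 2.76. Abcb6, a porphyrin transporter, had 7.72 and 7.59 in WT and 7.51 and 7.62 in KO. Abcb10, a mitochondrial protein of haem synthesis, had 5.71 and 5.79 in WT and 5.33 and 5.64 in KO. Neither Abcb6 nor Abcb10 was split by diet without overlap. Abcb8, another mitochondrial member, lay between 4.29 and 4.64.

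In subfamily C, 2 of 10 genes were near the median on all arrays, Abcc8, the sulphonylurea receptor of the pancreatic beta cell, and Abcc12. Abcc4 (MRP4), which exports cyclic nucleotides, prostaglandins and bile acid conjugates, had 6.18 and 4.40 on the WT arrays without and with prebiotics and 5.84 and 4.37 on the KO arrays. Both prebiotic arrays were low and the groups by diet did not overlap. Abcc9, the SUR2 subunit of the ATP-sensitive potassium channel of smooth muscle, had 6.73 and 6.55 in WT and 7.43 and 6.61 in KO, so the KO array without prebiotics stood above the others. Abcc3 (MRP3) had 9.92 and 9.98 in WT and 9.99 and 10.13 in KO. Abcc1 (MRP1), an exporter of glutathione conjugates, had 6.78 and 6.64 in WT and 6.76 and 6.60 in KO. Abcc2 (MRP2), its apical counterpart, had 2.98 and 3.005 in WT and 2.79 and 3.46 in KO, and left the near-median range on the KO prebiotic array only. Abcc5 (MRP5), an exporter of cyclic nucleotides, lay between 5.72 and 6.03, Abcc10 (MRP7) between 3.96 and 4.31, and Abcc6, which is needed to keep soft tissue free of calcification, between 3.18 and 3.51.

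Abcd3, the peroxisomal importer of branched and long-chain acyl-CoA also known as PMP70, had 10.74 and 10.36 in WT and 10.43 and 10.31 in KO. Abcd4, the lysosomal cobalamin transporter, had 3.51 and 3.56 in WT and 3.43 and 3.62 in KO, just above the limit. Abcd2, a relative of Abcd3, was near the median at 2.81 to 3.13.

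Abce1, which splits ribosomes after termination, had 9.24 and 9.10 in WT and 9.37 and 8.98 in KO. Abcf1 and Abcf2 lay between 6.38 and 6.70, and Abcf3 between 4.31 and 4.59. None of these 4 genes of E and F was near the median. Abcf1 had 6.57 and 6.43 in WT and 6.45 and 6.38 in KO. Abcf2 had 6.54 and 6.45 in WT and 6.41 and 6.70 in KO, opposite in direction between the genotypes. Abcf3 had 4.54 and 4.31 in WT and 4.59 and 4.49 in KO.

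In subfamily G, 5 of 6 genes were near the median, among them Abcg4, a sterol transporter of the brain. The exception was Abcg2 (BCRP), an apical exporter of drugs, urate and porphyrins, with 8.28 and 8.60 in WT and 8.05 and 8.70 in KO. Its prebiotic arrays lay above both others. Abcg1, a cholesterol exporter to high-density lipoprotein, had 3.04 and 3.33 in WT and 3.21 and 3.15 in KO. Abcg3, a rodent relative of Abcg2, had 2.92 and 2.76 in WT and 3.07 and 2.80 in KO. Abcg5 and Abcg8, the heterodimer that returns plant sterols and cholesterol to the lumen, lay side by side on chromosome 17 and were both near the median, at 2.67 to 2.87 and 2.64 to 2.89.

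Neighbouring members did not always share their state. RefSeq places 15 members next to another member, in 10 adjacent pairs. Abcb1a and Abcb1b, Abca3 and Abca17, Abca8a and Abca8b, and Abca9 and Abca6 each had 1 gene near the median on all arrays and 1 that was not.

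The prebiotic comparison asked which members differed between arrays with and without prebiotics in both genotypes. A gene entered the fit over 4 arrays if it reached the median of single-symbol probe sets on at least 1 array, which 33 of 48 members did, against 59% of all genes. Of the 33, 8 reached it on fewer than 4 arrays. Abcb9, Abcc2 and Abcc8 reached it only on prebiotic arrays, and Abcb1b, Abcd2 and Abcg3 only on arrays without prebiotics. Limma with genotype and prebiotic as terms leaves 1 residual degree of freedom, which is how far the prebiotic differences of the genotypes disagree. Its p-values set the mean prebiotic difference against that disagreement, moderated over all genes tested. With 1 array per group they measure no spread between arrays of a group or between mice. With the WT arrays by title, Abcc4 fell by 1.62 on the log2 scale with prebiotics (SE 0.14, limma adjusted p = 0.00108) and Abca12 rose by 0.62 (SE 0.091, limma adjusted p = 0.0142). Thus 1 member was called higher and 1 lower, while 0.994% of all 13083 genes tested were called higher and 0.26% lower. With each array centred on the median of the genes tested, limma called 5 members, 2 higher and 3 lower. With the WT pair exchanged, as the descriptions have it, limma called 0 members and 0 genes in all (1 member at an unadjusted p under 0.05), and the differences were 0.16 (SE 0.73) for Abcc4 and 0.14 for Abca12. The calls therefore hold for the titles only.

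Abcc4 was lower with prebiotics in each pair, 2.77-fold in KO and 3.44-fold in WT by title. In the KO pair, where labels do not conflict, it was the member with the largest difference and the only one at 2-fold or more, while 0.139% of 12216 genes were as much as 2-fold lower. In the WT pair, it was again the only such member, against 0.18% of 12223 genes. Abca12 was 1.70-fold higher in the KO pair and 1.39-fold higher in the WT pair by title. Without the trend in eBayes, Abca12 had a limma adjusted p of 0.165 and was not called.

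The promoters of the called genes are shown because their transcript levels separated the diets by title in opposite directions. They are RefSeq sequences of GRCm38.p6, 5′ to 3′ on the gene's strand, from 250 bases before a transcript start to 50 bases after it. RefSeq gives Abcc4 a pair of starts, at chr14:118706170-118706469 and chr14:118676882-118677181, and Abca12 one, at chr1:71414861-71415160, all on the minus strand. Capitals mark matches on either strand to 7 motifs: TGACNNNGC (antioxidant response element core, bound by Nrf2), GCGTG (xenobiotic response element core, bound by the aryl hydrocarbon receptor), CACGTG (E-box), AGGTCA (nuclear receptor half-site), GGGCGG (GC box), CCAAT and TATAAA.
Abcc4 first start: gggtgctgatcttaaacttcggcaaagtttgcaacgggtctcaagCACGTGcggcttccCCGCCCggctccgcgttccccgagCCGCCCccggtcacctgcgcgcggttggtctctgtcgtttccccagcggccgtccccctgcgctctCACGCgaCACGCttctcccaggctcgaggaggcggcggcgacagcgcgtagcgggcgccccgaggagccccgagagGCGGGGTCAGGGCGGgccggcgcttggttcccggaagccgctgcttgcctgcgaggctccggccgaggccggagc
Abcc4 second start: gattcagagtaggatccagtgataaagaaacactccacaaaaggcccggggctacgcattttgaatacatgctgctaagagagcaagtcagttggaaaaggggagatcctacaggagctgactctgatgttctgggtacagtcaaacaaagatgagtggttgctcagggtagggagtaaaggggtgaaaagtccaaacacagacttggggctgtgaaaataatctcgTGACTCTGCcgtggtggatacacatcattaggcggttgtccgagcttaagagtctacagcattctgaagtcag
Abca12: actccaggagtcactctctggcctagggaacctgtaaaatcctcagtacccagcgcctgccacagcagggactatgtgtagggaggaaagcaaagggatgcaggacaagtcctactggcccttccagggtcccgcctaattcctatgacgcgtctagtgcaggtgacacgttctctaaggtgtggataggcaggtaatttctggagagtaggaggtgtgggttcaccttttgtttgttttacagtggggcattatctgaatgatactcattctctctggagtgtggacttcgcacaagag

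The promoter at the first start of Abcc4 is 72.7% G and C, with 41 CpG, and held 1 match to TGACNNNGC, 2 to GCGTG, 1 to CACGTG and 3 to GGGCGG; the first of these motifs ends where a GC box begins. The second start also held 1 match to TGACNNNGC, and the Abca12 window, 51.3% G and C, held 0 matches to the 7 motifs. Of all 32851 promoters, 12.4% held TGACNNNGC, 32.4% GCGTG, 7.15% CACGTG and 35.7% GGGCGG. The half-site stood in 16.3% of them, the CCAAT box in 37.4% and the TATA box in 13.6%. Among 45 promoters of 38 members, 7 held TGACNNNGC, 16 GCGTG, 6 CACGTG and 21 GGGCGG. A match describes the letters only.

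Several other members were ordered by diet without passing the test. Abcg2 was higher on the prebiotic arrays by 0.49 (SE 0.10, limma adjusted p = 0.0589), with 0.65 in the KO pair and 0.32 in the WT pair. With probe sets averaged per gene its difference stayed at 0.49, since each member has 1 probe set, and its limma adjusted p was 0.0498. With each array centred on the median of the genes tested its limma adjusted p was 0.0234, and with the trend left out 0.240. Abcc9 had a difference of -0.50 (SE 0.15, limma adjusted p = 0.172), of which the KO pair gave -0.82 and the WT pair -0.18. Abcb1a had -0.22 and Abcd3 -0.25, with limma adjusted p-values of 0.107 and 0.146. Abca7 and Abca3 had 0.43 and 0.40, with limma adjusted p-values of 0.188 and 0.200, and Abce1 had -0.27 with 0.188. In all, 10 of 33 members had an unadjusted p under 0.05, against 13.8% of all genes tested; 5 were higher and 5 lower, against 9.13% and 4.62%, and 1 of the higher ones was Abcb9. By title, 20 of 33 members had both prebiotic arrays outside both others, against 42.9% of all genes tested; 10 lay above and 10 below, against 25.5% and 17.4%. Of those above, 3 were Abcb9, Abcc2 and Abcc8, and of those below 1 was Abcg3, so these counts describe members that entered partly through the diet in which they were high.

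**Figure D2:**
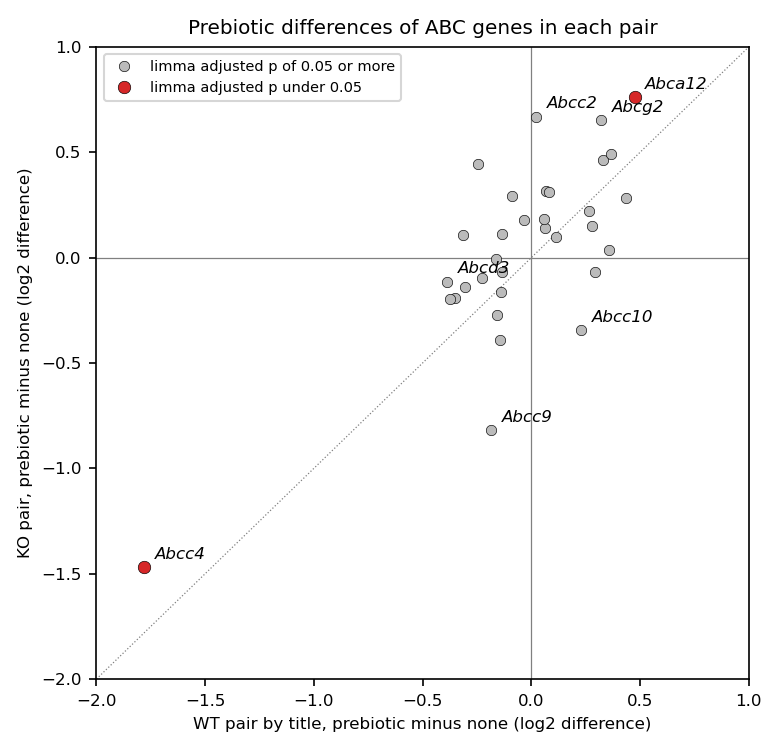
Log2 difference, prebiotic minus none, in the KO pair (vertical axis) against the WT pair by title (horizontal axis) for the 33 ABC genes in the models; the dotted line marks equal differences. Abcc4 lies alone at -1.78 and -1.47, Abca12 at 0.48 and 0.76, and Abcc9 has a larger difference in the KO pair.

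The pairs share no array. The sign was the same in both for 26 of 33 members, against 59.2% of all genes tested, a count that turns with the exchange of the WT pair. Over the members in each pair, the median difference was 0.11 in KO and -0.035 in WT by title, beside 0.036 and 0.018 for all genes. At 1.5-fold, 3 members were higher in the KO pair (Abca12, Abcg2 and Abcc2) and 2 lower (Abcc4 and Abcc9), where 2.63% and 1.15% of all genes were. In the WT pair 0 were higher and 1 lower, where 2.07% and 1.11% were. Abcc2, higher by 0.67 in the KO pair, entered that count through the KO prebiotic array alone. It started near the median, so its size is approximate, and its difference in the WT pair was 0.022. On the KO prebiotic array the small intestinal marker Sis and the Paneth marker Defa21 were high too. Sis, the brush border disaccharidase, differed by 1.82 in the KO pair and 0.20 in the WT pair. Defa21 differed by 5.10 and -0.39, Apoa4 by 1.59 and 0.041, and Fabp6 by 0.96 and 0.26. Apoa4 had 5.21 and 5.25 in WT and 3.83 and 5.43 in KO. Fabp6 had 3.10 and 3.36 in WT and 2.66 and 3.62 in KO. Apoa4 and Fabp6 were thus lowest on the KO array without prebiotics, which enlarges their KO differences. Other markers of these lists did not set the KO pair apart. Alpi had 1.22 and 1.84, Slc5a1 0.44 and 0.54, Slc10a2 2.68 and 2.62, and the Paneth marker Mmp7 0.018 and -0.051. In each pair 8 of 9 enterocyte markers were higher, against 56.0% of all genes in the KO pair and 52.9% in the WT pair. The part of these markers in the difference of Abcc2 was not tested.

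The genotype comparison set the KO arrays against the WT arrays over both diets. Without a diet term this fit does not depend on the WT labels; the block on diet and the comparisons within a diet do. Limma with 2 residual degrees of freedom called 0 of 33 members in either direction, and 0 of 13083 genes, so 0% of all genes were called. The residual of this fit holds the diet differences, which widens the SE of genes that differ by diet. For Abcc4 the SE was 0.62, against 0.14 in the prebiotic fit. At an unadjusted p under 0.05 there was 1 member, Abca9, against 3.29% of all genes. With diet by title as a block, limma called 12 genes, 0 of them members. Before adjustment, 4 of 33 members fell under 0.05 in that fit, against 895 of 13083 genes. With the block on diet by description, limma called 0 genes, and 0 members and 244 genes fell under 0.05 before adjustment. Members' differences ran from -0.26 (Abcb10) to 0.40 (Abca9), with a median of 0.0042 beside 0.010 for all genes. Of the 33, 6 had both KO arrays outside both WT arrays, against 30.2% of all genes, and 0 did so with means at least 0.4 apart, against 2.13%.

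The largest genotype differences, chosen after their values were seen, were those of Abca9, Abcc9 and Abca1. Abca9, a lipid transporter gene of the cluster on chromosome 11, had 3.03 and 3.10 in WT and 3.30 and 3.62 in KO, a difference of 0.40 (SE 0.15, limma adjusted p = 0.999) at values near the median on 3 arrays; without the KO prebiotic array it was 0.24. Abca1 had 4.38 and 4.02 in WT and 4.61 and 4.42 in KO, a difference of 0.32 (SE 0.17, limma adjusted p = 0.999), with both KO arrays above both WT arrays; without the WT array titled as prebiotic it was 0.14. The difference of Abcc9 was 0.38 (SE 0.25, limma adjusted p = 0.999) and rested on 1 array: without the KO array kept without prebiotics it was -0.032, and without the KO prebiotic array 0.79. Without prebiotics, by title, Abcc9 was 0.69 higher in KO, the only member at 1.5-fold, where 2.37% of all genes were 1.5-fold apart. By title, 0 members were 2-fold apart between genotypes at either diet, where 0.342% of all genes were without prebiotics and 0.281% with them. With the WT pair exchanged, 1 member, Abcc4, was 2-fold apart at each diet, higher in KO without prebiotics and lower in KO with them. After that exchange 75 of 12390 genes were 2-fold apart without prebiotics and 108 of 12087 with them. With prebiotics, by title, 0 members were 1.5-fold apart between genotypes, where 1.99% of all genes were.

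**Figure D3:**
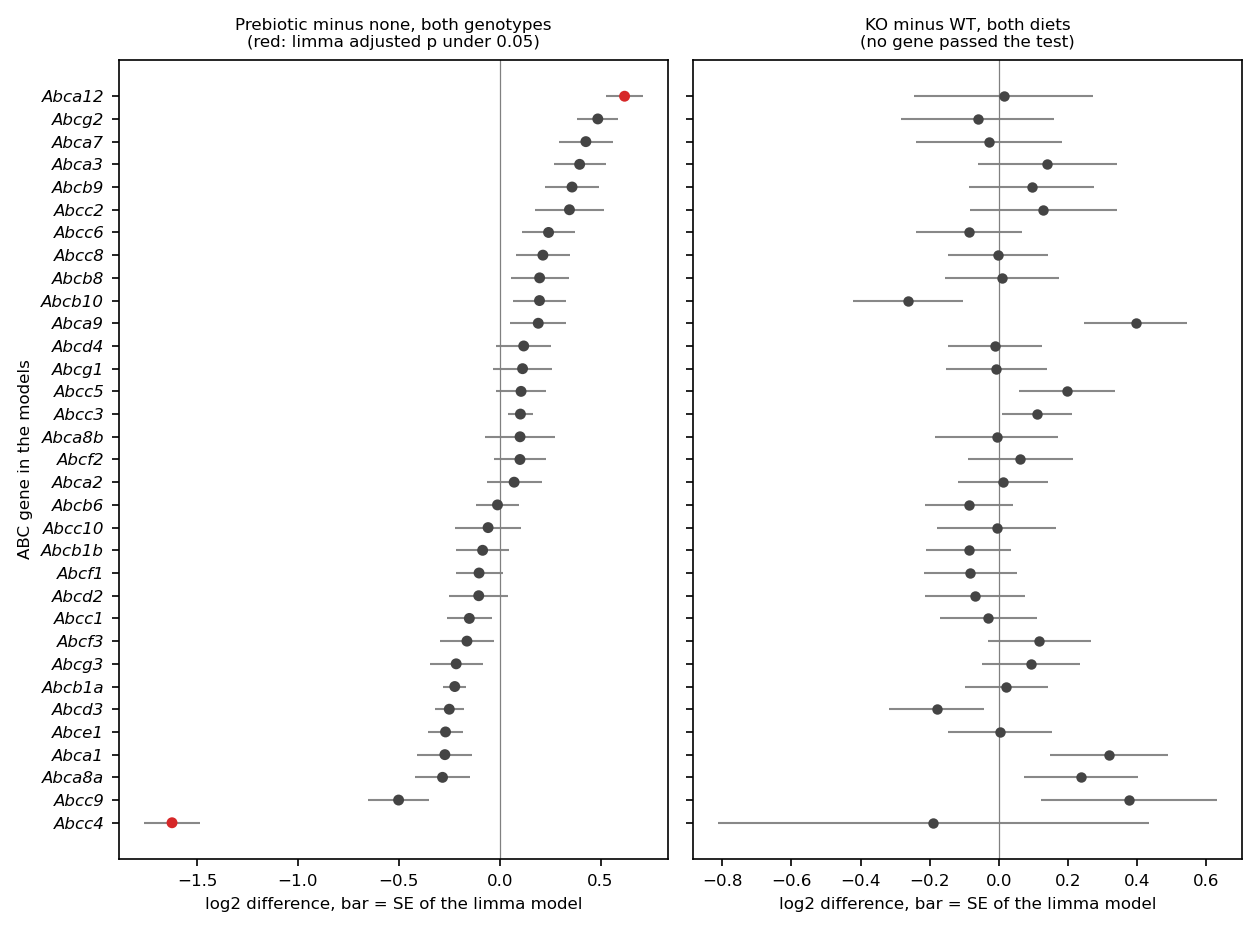
Limma log2 differences (points) with the SE of the model (bars) for the 33 ABC genes in the models, prebiotic minus none on the left and KO minus WT on the right, in the same gene order. Abcc4 (-1.62) and Abca12 (0.62) are the only red points, and the wide bar of Abcc4 on the right holds its diet difference.

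Markers of cell types in the caecal wall moved beside some members. The lists were chosen with earlier results of these data known, so their counts are no independent reading of cell types. Over all genes tested, 0.994% were called higher with prebiotics by title and 0.26% lower. Of 9 mature colonocyte markers, 7 rose, among them the butyrate transporter Slc5a8 (1.94), Tmigd1 (1.22), Ceacam20 (0.66) and the carbonic anhydrase Car4 (0.59). All 9 were higher in each pair, against 56.0% of all genes in the KO pair and 52.9% in the WT pair. The mean of the list was 9.44 and 10.11 in WT and 9.39 and 10.10 in KO, so it was ordered by diet like Abca12 and Abcg2; its part in their differences was not tested. Of 10 epithelial markers 0 were called, with a median of 0.067. Small intestinal enterocyte markers had a median of 0.61 over both pairs, with 2 of 9 called higher, the phosphatase Alpi and the bile acid importer Slc10a2, which rose in both pairs.

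Smooth muscle markers, the cells in which Abcc9 is known to act, fell with prebiotics by title in 3 of 10 genes, Synpo2 (-0.78), Myl9 (-0.45) and Myh11 (-0.41). The list mean was 7.86 and 7.53 in WT and 8.11 and 7.94 in KO. It fell by 0.33 in the WT pair, where Abcc9 had -0.18, and by 0.18 in the KO pair, where Abcc9 had -0.82. The 10 markers ran from -0.67 (Synpo2) to 0.36 (Des) in the KO pair, with 2 of them higher, and 0 were higher in the WT pair. For genotype, 10 of 10 smooth muscle markers were higher in KO (median 0.32, 0 called), against 52.9% of all genes tested, beside the 0.38 of Abcc9. Endothelial markers were lower in 7 of 8 in the KO pair (median -0.28), with 0 called. In the WT pair by title their median was -0.046, with 3 of 8 higher. Kcnj8, which forms the channel pore with Abcc9, had 4.55 and 4.33 in WT and 5.11 and 4.69 in KO, highest on the same array as Abcc9; its prebiotic difference was -0.32 (limma adjusted p = 0.345). The other pore gene, Kcnj11, was near the median. Fibroblast and macrophage markers were higher in KO in 8 of 8 and 8 of 8 genes, against the same 52.9%. Their medians were 0.40 and 0.25, with 0 called for genotype, beside the KO differences of Abca1 and Abca9. The fibroblast mean was 6.43 and 6.79 in WT and 6.92 and 7.13 in KO, and the macrophage mean 3.77 and 4.19 in WT and 4.35 and 4.38 in KO. For prebiotics 1 fibroblast gene was called higher and 0 macrophage genes. What these cell types contribute was not tested.

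**Figure D4:**
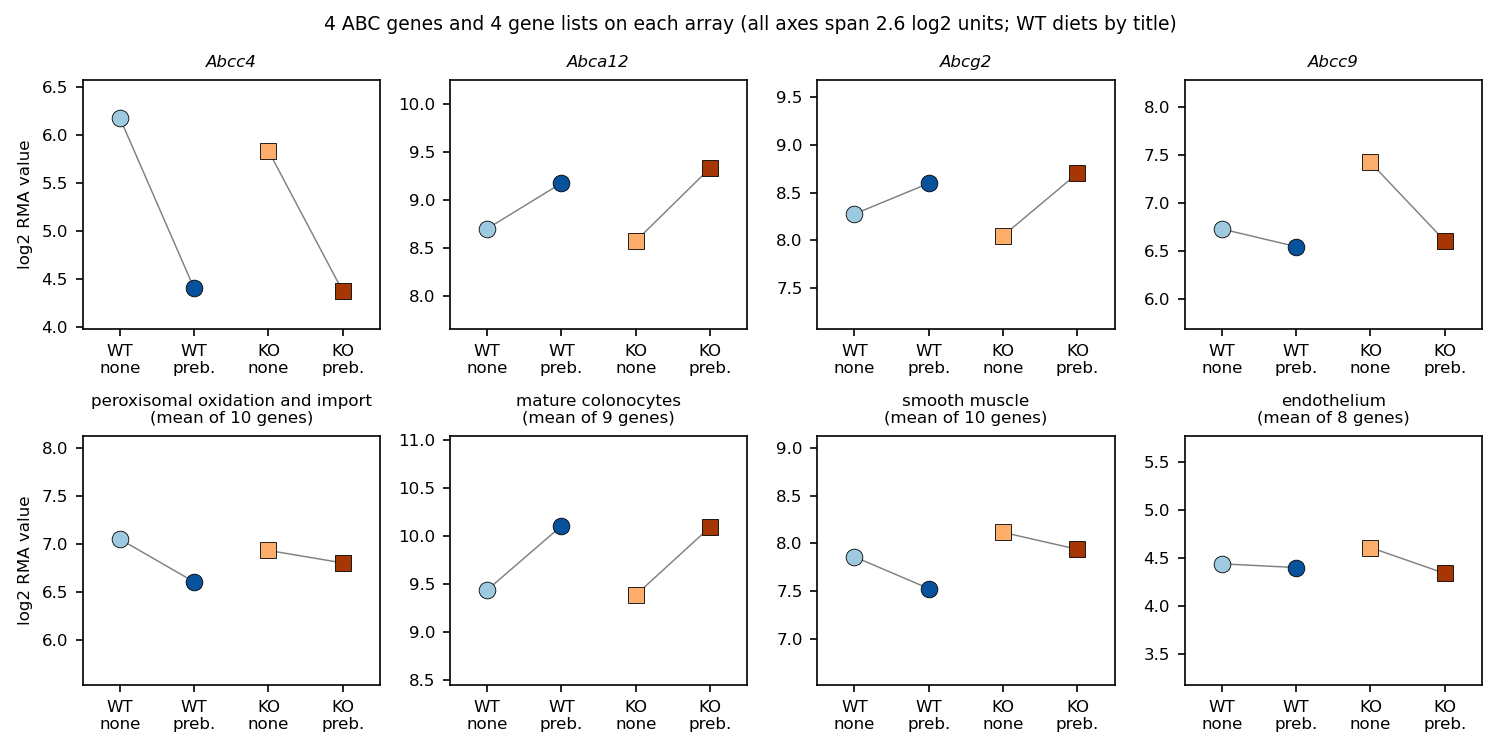
Log2 RMA value on each array for Abcc4, Abca12, Abcg2 and Abcc9 (top) and the mean of 4 gene lists (bottom), with lines joining the arrays of one genotype. Abca12, Abcg2 and the colonocyte mean are higher on both prebiotic arrays, Abcc4 is lower on both, and Abcc9 is highest on the KO array without prebiotics.

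Among genes that work with the family, the peroxisomal list held other genes that fell. Of 10 peroxisomal genes in the fit 0 rose and 2 fell with prebiotics by title, the beta-oxidation enzyme Ehhadh by 1.12 on the log2 scale (limma adjusted p = 0.005) and catalase (Cat) by 0.55 on the log2 scale (limma adjusted p = 0.005), with a list median of -0.20, and medians of -0.036 in the KO pair and -0.43 in the WT pair by title. The peroxisomal importer Abcd3 itself did not pass. Acaa1b had -0.83 and Hsd17b4 -0.35, which did not pass either.

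Of 12 nuclear receptors and other factors known to drive ABC genes, 1 rose and 0 fell. It was Nr1i3 (CAR), the xenobiotic receptor, with 3.31 and 4.004 in WT and 3.02 and 3.94 in KO, a difference of 0.81 (SE 0.14, limma adjusted p = 0.029). On both arrays without prebiotics Nr1i3 was within the near-median range, so the size of its rise is approximate. Abcc4, a known target of CAR and Nrf2 in liver, moved the opposite way. Nfe2l2, which encodes Nrf2, had -0.059, and Ahr, the aryl hydrocarbon receptor, -0.099. Nr1i2 (PXR), which drives Abcb1a, had 7.11 and 6.57 in WT and 6.51 and 7.05 in KO, opposite in direction between the pairs. Nr1h3, the liver X receptor gene behind Abca1 and Abcg1 induction, had 0.085.

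Of 11 SLC carriers of drugs, organic ions and bile acids, 3 rose and 0 fell: the bile acid importer Slc10a2 (2.65), the basolateral bile acid exporter subunit Slc51a (1.01) and the prostaglandin transporter Slco2a1 (0.83). Slco2a1 takes up prostaglandins that Abcc4 exports, and had 7.97 and 8.51 in WT and 7.73 and 8.85 in KO. Of 9 sterol partners in the fit 0 were called, with a median of 0.27; the lysosomal cholesterol exporter Npc1 had 0.63 and the lipoprotein receptor Scarb1 -0.49. Of the 3 relatives under other symbols 0 were called. Cftr had 8.50 and 8.71 in WT and 8.79 and 8.92 in KO, Tap1 lay between 3.92 and 4.01, and Tap2 was near the median.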

How the data were processed

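The authors deposited log2 values for 41345 probe sets of 4 arrays, made with Affymetrix Expression Console and RMA per the submitters' processing notes, with no version named. The log base was taken from RMA. RMA subtracts background and forces a common distribution, which compresses differences close to background; no genome build is named in those notes. The number of arrays limits the precision.

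Probe sets with 1 symbol (23521; several 1814, none 16010) gave 22180 genes, each by its probe set with the highest mean. Tests used limma 3.58.1 under R 4.3.3 (lmFit, eBayes with a trend, two-sided, Benjamini-Hochberg over all genes tested, called at 0.05) and were tested on simulated data. Pairs of single arrays had no test and were counted at 2-fold. Values on every array are given for members that were called, 1.5-fold apart in a pair or among the 3 highest means of a subfamily; other members are given by ranges and counts, except Abca1 and Abca9, chosen after their values were seen. Of each list, the text names up to 4 genes, called ones first, and further list genes chosen after their values were seen. The members and all 19 lists were chosen with earlier results of these data known; those for goblet, Paneth, B, T, adipose and enteric nerve cells had 0, 0, 0, 0, 2 and 0 genes called for prebiotics, both adipose genes lower.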

Additional observations from a re-analysis of the deposited data

Results flagged for a closer look

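The following differences, prebiotic minus none, had opposite signs in the KO pair and in the WT pair by title. With 1 array per group the difference between genotypes was not tested, and with the WT pair exchanged the signs would match. They concern 7 of the 33 ABC genes in the models. Abca8b had 0.45 in KO and -0.24 in WT, at values near the median. Abcc10 (MRP7), a drug exporter, had -0.34 and 0.23. Abcd2 had 0.11 and -0.31, and Abcg1 had -0.068 and 0.29, all near the median. Abcf2 had 0.29 and -0.090, Abca2 0.18 and -0.035, and Abcb6 0.11 and -0.13. Among the regulators, Nr1i2 had 0.54 and -0.55, Ppara 0.19 and -0.29, and Ahr -0.20 and 0.0070.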

How the results depend on the processing

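The count of 2 members called for prebiotics was 5 with arrays centred on the median of the genes tested. Of these, 2 were higher (Abca12 and Abcg2) and 3 lower (Abcc4, Abcb1a and Abcd3). The count was 3 with probe sets averaged per gene (Abca12, Abcc4 and Abcg2), 1 without the trend (Abcc4) and 0 with the WT pair exchanged. All genes called were 164 in the main fit, 324 with centring and 205 with averaging. They were 25 without the trend, 85 without the filter and 0 with the exchange. Abcc4 was called in all 6 alternatives other than the exchange, between -1.66 and -1.62. With the exchange it turned to 0.16, and to 1.78 in the WT pair. At 1.5-fold in place of 2-fold the counts were 5 in the KO pair and 1 for genotype without prebiotics. With the exchange, 1 member (Abcc4) was 2-fold apart between genotypes without prebiotics, higher in KO, and 1 with prebiotics, lower in KO. Over all genes 75 of 12390 and 108 of 12087 were 2-fold apart in these comparisons. Leaving out 1 array at a time kept the genotype count at 0, with Abcc9 between -0.032 and 0.79; for prebiotics it leaves no residual degrees of freedom and was not run. The count near the median was 23, and with a limit of 1 log2 unit it was 28. The cause of these shifts was not tested.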
